A study of Mus musculus with 12 samples.

Results

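The AP-1 subunit genes of the mouse are the 4 Fos family genes Fos, Fosb, Fosl1 and Fosl2 and the 3 Jun family genes Jun, Junb and Jund. They were taken by symbol, and all 7 were found among the 17419 genes of the deposited table. The study followed wild-type NIH-3T3 cells, an established mouse embryonic fibroblast line, over increasing durations of metabolic RNA labelling with 4-thiouridine (4sU), a uridine analogue that cells build into new RNA. Labelling lasted 15, 30, 60, 90 or 120 min, at a 4sU concentration of 800 µM, and unlabelled cells, called no4sU, served as the control. Each of the 6 groups held 2 libraries, replicates A and B, 12 libraries in all, from 1 cell line and total RNA. Iodoacetamide treatment of the RNA makes sequencing read 4sU as cytosine (SLAM-seq). From such conversions the new-to-total RNA ratio (NTR) is estimated, the fraction of a gene's RNA made since labelling began.

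AP-1 is a dimeric transcription factor of the basic leucine zipper class. Jun proteins pair with themselves or with Fos proteins, whereas Fos proteins need a Jun partner. Several subunit genes are immediate-early genes: growth factors and stress induce them through MAP kinases without new protein synthesis, and their mRNAs are known for rapid decay, in which AU-rich elements of the 3′ untranslated region (UTR) take part. In fibroblasts AP-1 is known for its part in the response to serum, in cell cycle entry and in matrix turnover.

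The libraries held 9917026 to 13739380 reads assigned to genes. All 11 of the 11 fibroblast markers examined, collagen and vimentin genes among them, were expressed at 1 CPM or more (counts relative to the library size, scaled by edgeR's TMM), with a summed level of 16972 to 20692 CPM, against at most 9.40 CPM for each list of epithelial, immune, endothelial, muscle or neural markers. The 2 no4sU libraries differed from each other more than labelled replicates did. The mean chi-square of their counts per gene was 11.02, against 1.58 to 2.01 in the 5 labelled groups, and their Spearman correlation across 9065 genes was 0.989, against 0.996 to 0.997. Jund is the member most touched by this difference, as its values below show. No labels say whether replicates were separate cultures, so the p-values measure the spread between these libraries only.

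The members lie on 6 chromosomes (GRCm38, GENCODE M21; genomic positions of the genes). Fos (ENSMUSG00000021250) lies at chr12:85473890-85477273 on the plus strand and Fosb (ENSMUSG00000003545) at chr7:19302696-19310051 on the minus strand. Fosl1 (ENSMUSG00000024912) lies at chr19:5447547-5455946, plus strand, and Fosl2 (ENSMUSG00000029135) at chr5:32135801-32157842, plus strand. Jun (ENSMUSG00000052684) lies at chr4:95049034-95052222, minus strand. Junb (ENSMUSG00000052837) and Jund (ENSMUSG00000071076) share chromosome 8, at chr8:84974484-84978718 on the minus strand and chr8:70698949-70700616 on the plus strand. For each of the 7, the deposited length equals that of its longest M21 coding transcript, from 1668 bases for Jund to 6537 for Fosl2. In 4 of the 7, exons overlap exons of a gene on the other strand: Ccdc85b covers 57.2% of the exonic bases of Fosl1, Gm11175 52.6% of Jund, Prdx2 7.52% of Junb and Junos 7.28% of Jun. No label names the strand setting of the counting, and reads over these stretches may come from either gene. Mean counts of the partners over the 12 libraries were 459 for Ccdc85b, 1.92 for Gm11175, 2544 for Prdx2 and 45.3 for Junos, beside 2204 for Fosl1, 332 for Jund, 339 for Junb and 1673 for Jun.

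The 3′ UTRs are shown because their AU-rich elements are known to take part in the decay of such mRNAs. Their part in the NTRs of the members was not tested. Every member holds at least 1 AUUUA, the core of the AU-rich element that Zfp36 proteins and other AU-rich binders recognise. For each, the 30-base stretch of the 3′ UTR with the most copies is given from GENCODE M21, 5′ to 3′ on the sense strand, with AUUUA in capitals.
Fos: uguguuuucaAUUUAUUUAuuaagauggau
Fosb: ccacccccagcuAUUUAucccuuuccuggu
Fosl1: agggcagcugcuAUUUAuuuuccuaaagag
Fosl2: auugacAUUUAuuuuauuAUUUAuuuuaaa
Jun: aucAUUUAuaaucauaggaaagAUUUAgua
Junb: auauauuuguguAUUUAacagggaggggag
Jund: cgauuccgcccuAUUUAuguuucuacucgg
On GRCm38 the Fos stretch lies at chr12:85477101-85477130, that of Fosb at chr7:19303325-19303354, that of Fosl1 at chr19:5455867-5455896 and that of Fosl2 at chr5:32156865-32156894. The Jun stretch lies at chr4:95049207-95049236, that of Junb at chr8:84977126-84977155 and that of Jund at chr8:70700359-70700388, each on the strand of its gene.

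Whole 3′ UTRs held 8 AUUUA in Fosl2, 4 in Fos, 4 in Jun, 2 in Junb and 1 each in Fosb, Fosl1 and Jund. Counted per 1000 bases of 3′ UTR, the density was 4.91 in Fos, 4.12 in Junb, 3.24 in Jun, 1.88 in Jund, 1.72 in Fosl2, 1.57 in Fosl1 and 0.466 in Fosb. The median of 8957 genes with a coding model and a mean count of at least 100 was 1.41, and 72.1% of them held at least 1 AUUUA. The longer form UUAUUUAUU was found once in Fos and once in Fosl2, not in the other 5, and in 8.43% of the 8957 genes. A copy of UUAUUUAUU also counts as AUUUA. These are letter matches and say nothing of binding.

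In the 250 bases before the RefSeq transcript start (GRCm38.p6), 6 of the 7 members had an entry, all but Fosl1. Both strands were searched for the cyclic AMP and AP-1 elements TGACGTCA, TGACTCA and TGACATCA, for the shorter core TGACG, which lies within TGACGTCA, for the CArG box bound by serum response factor and for TATAAA. The matches, with the motif in capitals, are shown because the first 4 motifs are the letters that AP-1 and its basic leucine zipper relatives recognise.
Jun: cctcggggTGACATCAtgggctat
Fos: ttccgcccagTGACGtaggaagtc
Fos: cagcgcttcTATAAAggcgccagc
Fosb: gagttgcgggTGACGcaagcgcgg
Junb: ttcctgacagTGACGcgagccgcc
The Jun match, at chr4:95052252-95052275 on the minus strand, starts 45 bases before the transcript start, and the printed Fos TGACG, at chr12:85473814-85473837, starts 66 bases before it. Fos held another TGACG starting 129 bases before the start. Of all 32851 promoters in the table, 2.93% held TGACATCA, 17.8% TGACG, 12.4% TATAAA, 1.55% TGACGTCA, 4.46% TGACTCA and 1.47% a CArG box. The last 3 were not found in the 6 windows, and the Fosl2 and Jund windows held none of the motifs. Sequence farther than 250 bases before the start was not searched, so a motif there, a CArG box included, would be missed.

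Per transcript length, Fosl1, which encodes Fra-1, was the most abundant subunit transcript in these fibroblasts and Fos itself the least. The level per transcript length, in CPM per kilobase, was 104 ± 5.92 for Fosl1 (mean ± SD, 12 libraries). Jun, the founding member of its family, stood at 46.1 ± 4.58 CPM per kilobase and Fosl2, which encodes Fra-2, at 43.9 ± 3.96. Jund followed with 17.6 ± 1.87, Junb with 16.4 ± 1.02, Fosb with 2.30 ± 0.251 and Fos with 0.959 ± 0.236. The 12 libraries of Jun and Fosl2 overlapped in range, as did those of Jund and Junb, so those 2 pairs have no order beyond their spread. No other neighbours in the order overlapped. Without division by length Fosl2 was above Fosl1, with 248 to 324 CPM against 177 to 218 CPM.

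**Figure D1:**
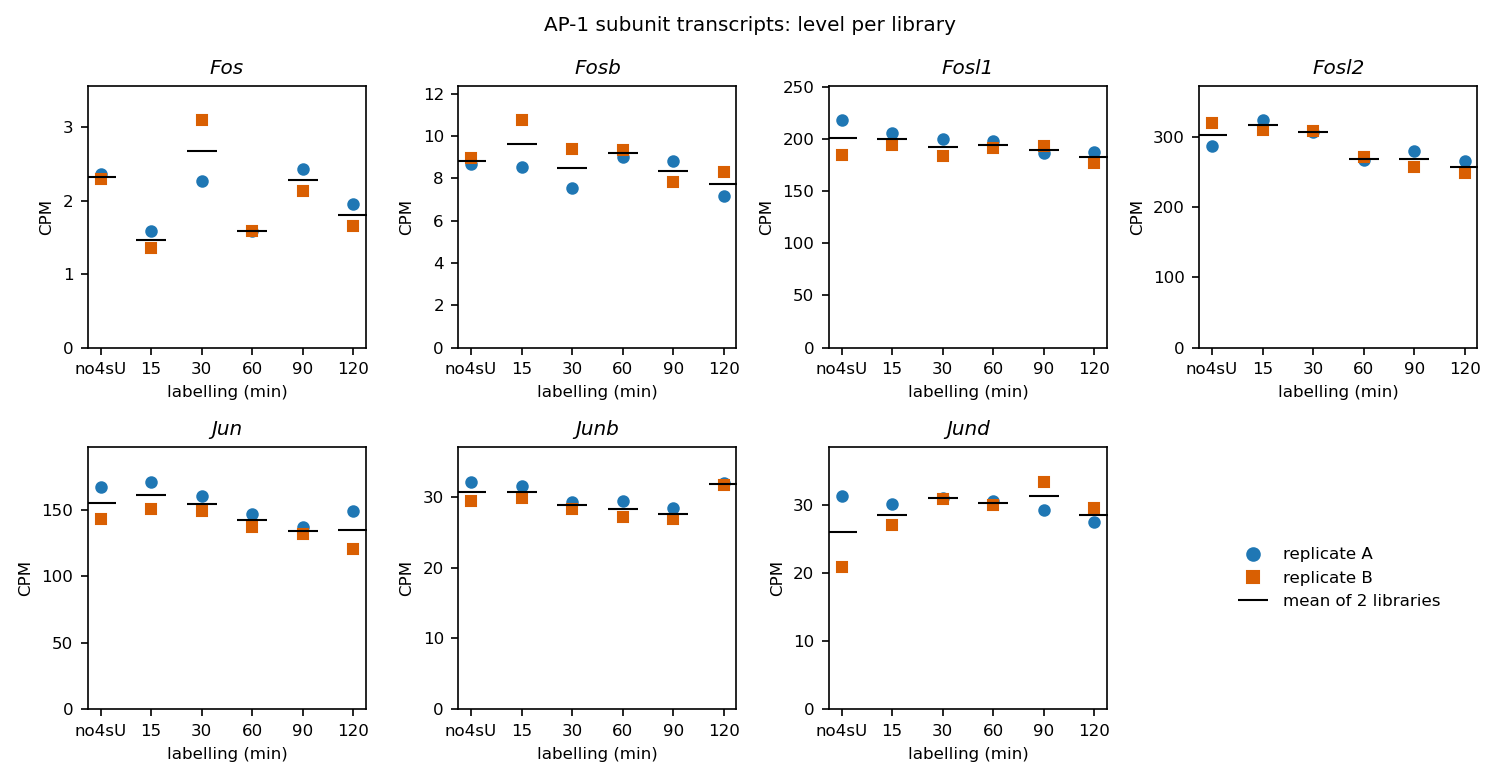
Level of each AP-1 subunit transcript in CPM (y axis, linear, from 0) by labelling duration (x axis, no4sU is unlabelled). Circles and squares are replicates A and B and the line is their mean; Fosl2 falls from 317 CPM at 15 min to 256 CPM at 120 min, whereas Fos scatters between 1.36 and 3.09 CPM.

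Against unlabelled cells no member changed by edgeR's quasi-likelihood test at 15, 30, 60 or 90 min (0 of 7 at each; Benjamini-Hochberg adjusted p below 0.05 over 11564 genes). The share of all genes called was 0% at 15 and 30 min, 0.0173% at 60 min and 1.39% at 90 min, with 618, 670, 895 and 1869 genes below an unadjusted p of 0.05. At 120 min 1 of 7 members fell, Fosl2, where 14.2% of all genes were called and 8.78% fell. The median log2 difference of the 7 members from no4sU at 120 min was -0.18, beside 0.01 for all genes tested.

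Fosl2 had 287 and 319 CPM without 4sU, in replicates A and B. With labelling it had 324 and 310 CPM after 15 min, 307 and 308 after 30 min, 267 and 271 after 60 min, 280 and 257 after 90 min, and 265 and 248 after 120 min. All 6 libraries from 60 min on were below all 6 libraries of the shorter and unlabelled groups. At 120 min Fosl2 was lower than in no4sU by a log2 difference of -0.24 ± 0.0600 (SE; edgeR, adjusted p = 0.0109) and lower than at 15 min by -0.31 ± 0.0601 (adjusted p = 0.00188). It was the member called in the edgeR test of any difference among the 5 durations (adjusted p = 0.00529), where 10.0% of all genes were called. Leaving out 120 min replicate B ended all 3 of these Fosl2 calls, with edgeR adjusted p-values of 0.146 against no4sU, 0.0509 against 15 min and 0.0523 for any difference. The fall from no4sU was also not called with only these 2 groups in the fit (edgeR, adjusted p = 0.164).

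Jun had 167 and 143 CPM without 4sU and 171 and 151 CPM after 15 min. It then had 160 and 149 CPM after 30 min, 147 and 137 after 60 min, 137 and 132 after 90 min, and 149 and 120 after 120 min. Both 120 min libraries lay below both 15 min libraries, the nearest by under 2 CPM. Jun fell between 15 and 120 min by a log2 difference of -0.26 ± 0.0891 (SE; edgeR, adjusted p = 0.0452). In that comparison 2 of 7 members fell, Fosl2 and Jun, where 19.3% of all genes were called and 11.3% fell. The 2 libraries at 120 min did not overlap those at 15 min in 6 of the 7 members, beside 66.0% of all genes. The Jun call was lost when 15 min replicate A was left out (log2 difference -0.17, edgeR adjusted p = 0.377). It was also lost when 120 min replicate B was left out (log2 difference -0.12, edgeR adjusted p = 0.501).

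Over all 5 durations, 3 of the 7 members fell with labelling time and none rose. The slope of the log2 level per hour, fitted by edgeR over the 10 labelled libraries and 11526 genes, was -0.18 ± 0.0230 for Fosl2 (SE; adjusted p = 6.38e-08). For Jun it was -0.16 ± 0.0315 (edgeR, adjusted p = 6.98e-05), and for Fosl1 -0.06 ± 0.0230 (edgeR, adjusted p = 0.0265). In this test 37.8% of all genes were called and 19.5% fell. The median slope of the members was -0.06 per hour, beside 0.00 for all genes tested.

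Fosl1 had 218 and 185 CPM without 4sU, 206 and 194 after 15 min, 200 and 184 after 30 min, 198 and 191 after 60 min, 187 and 193 after 90 min, and 188 and 177 after 120 min. The highest of the 12 was unlabelled replicate A and the lowest 120 min replicate B, and neighbouring durations overlapped. Of the 3 called trends that of Fosl1 was the shallowest. The trend of Fosl1 was not called with the no4sU libraries added at time 0 (edgeR, adjusted p = 0.0834). Leaving out 15 min replicate A, 30 min replicate A or 120 min replicate B also ended the call, with edgeR adjusted p-values of 0.141, 0.0609 and 0.180.

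The other 4 members showed no called trend. Fosb, a member strongly induced by serum in fibroblasts, had a slope of -0.14 per hour (edgeR, adjusted p = 0.163) with group means of 7.74 to 9.64 CPM. Junb, which can restrain Jun activity, had a slope of 0.02 (edgeR, adjusted p = 0.754) with group means of 27.6 to 31.8 CPM. Jund, the Jun gene known for steady expression in resting cells, had a slope of -0.01 (edgeR, adjusted p = 0.932). Its labelled libraries ran from 27.1 to 33.4 CPM, while of its unlabelled libraries replicate A had 31.3 CPM and replicate B had 20.9 CPM. Without no4sU replicate A, Jund was called higher at 120 min than in no4sU (log2 difference 0.45, edgeR adjusted p = 0.00174), and without replicate B the difference was -0.13.

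Fos, the prototype immediate-early gene, was counted on 15 to 32 reads a library. It had 2.36 and 2.29 CPM without 4sU, 1.58 and 1.36 after 15 min, 2.26 and 3.09 after 30 min, 1.59 and 1.58 after 60 min, 2.42 and 2.12 after 90 min, and 1.95 and 1.65 after 120 min. The 4 libraries at 15 and 60 min were the lowest of the 12. The edgeR test of any difference among durations gave an unadjusted p of 0.0352 and an adjusted p of 0.171 for Fos. Its slope was -0.00 ± 0.165 log2 per hour (SE; edgeR, adjusted p = 0.995).

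The falls moved with a pattern across the whole table, in which genes of high NTR were lower after longer labelling. Across genes, Spearman's correlation between NTR and the change from no4sU was -0.243 to -0.268 in the 60 min libraries. It was -0.459 to -0.525 at 90 min and -0.675 to -0.729 at 120 min. The share of labelled RNA whose restoration brings that correlation to 0 was 13.1% to 16.2% at 60 min, 20.9% to 24.2% at 90 min and 30.5% to 32.1% at 120 min. With the labelled part of each count scaled up by that share, the falls of Fosl2, Jun and Fosl1 were gone. The slope became 0.02 for Fosl2 (edgeR, adjusted p = 0.599), 0.03 for Jun (adjusted p = 0.535) and 0.13 for Fosl1 (adjusted p = 0.000144), and Fosl1 was then called as rising. Junb was then called as rising too, with a slope of 0.20 per hour (edgeR, adjusted p = 0.000994). Under this scaling the test of any difference gave an adjusted p of 0.946 for Fosl2 (edgeR). At 120 min Fosl2 then differed from no4sU by 0.07 (log2; edgeR, adjusted p = 0.671) and Junb by 0.34 (adjusted p = 0.0397). The scaling uses the NTR itself and applies 1 share to all labelled RNA of a library, a share chosen to remove the correlation. Genes of high NTR, most members among them, must move up under it relative to other genes. The direction of these shifts was therefore set in advance, and the calls after scaling are no separate test. The part of this pattern in the falls was not tested.

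**Figure D2:**
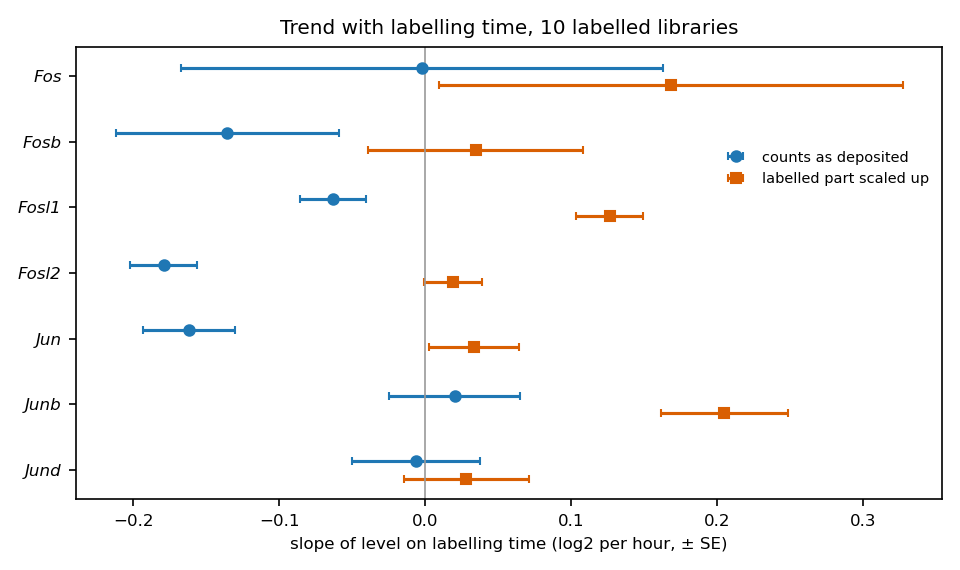
Slope of the log2 level on labelling time (x axis, log2 per hour, bars are ± SE) for each AP-1 subunit gene over the 10 labelled libraries. Circles use the counts as deposited and squares the counts with the labelled part scaled up from 60 min of labelling on. Fosl2 lies at -0.18 with the first and at 0.02 with the second, and Junb moves from 0.02 to 0.20.

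By the mean of both replicates, new RNA made up more of 6 of the 7 members than of 90% of genes from 30 min of labelling on, and Jund was the exception. At 60 min of labelling replicates A and B had NTRs of 0.880 and 0.887 for Fosl2 and of 0.887 and 0.861 for Jun. Junb had 0.682 and 0.707, Fosl1 had 0.649 and 0.631, and Fos had 0.794 and 0.606. Fosb had 0.410 and 0.454, whereas Jund had 0.255 and 0.235. The median gene of the 9065 with a mean count of at least 100 stood at 0.155 at that time and the 90th percentile at 0.426. On the mean of both replicates, 99.4% of genes had a lower NTR than Fosl2 and 99.4% lower than Jun. The share was 97.8% for Junb, 97.5% for Fos, 96.9% for Fosl1, 90.3% for Fosb and 72.3% for Jund.

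On the mean of both replicates, the count of members above the 90th percentile of genes was 5 of 7 at 15 min and 6 of 7 at each later duration, the exception from 30 min on being Jund. By these means all 7 were above the median gene from 30 min on, and Fos was below it at 15 min. In single libraries Jund was also below it, at 0.0427 in 30 min replicate B against a median of 0.0529. Fosb was below the 90th percentile in 60 min replicate A, at 0.410 against 0.416. These counts describe the members and carry no test.

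Fosl2 had NTRs of 0.1001 and 0.0457 after 15 min, 0.385 and 0.387 after 30 min, and 0.991 and 1 after 90 min. Jun went from 0.132 and 0.0810 at 15 min through 0.434 and 0.483 at 30 min to 0.946 and 0.952 at 90 min. Fosl1 went from 0.0656 and 0.0263 through 0.244 and 0.260 to 0.883 and 0.868 at 90 min. All 3 stood at 1 in both replicates at 120 min, with lower interval bounds of 0.9705 or more. Replicate B was below replicate A at 15 min in each of the 3.

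Junb had 0.140 and 0.0696 after 15 min, 0.265 and 0.411 after 30 min, 0.823 and 0.844 after 90 min, and 0.992 and 0.921 after 120 min. Fosb had 0.0167 and 0.0138 after 15 min, 0.304 and 0.307 after 30 min, 0.774 and 0.684 after 90 min, and 0.968 and 0.926 after 120 min. Jund had 0.110 and 0.0335 after 15 min, in the middle of the members by mean. From 30 min on it had the lowest mean of the 7, with 0.144 and 0.0427 after 30 min, 0.358 and 0.314 after 90 min, and 0.526 and 0.484 after 120 min. At 120 min about as much old as new Jund RNA was present in both libraries.

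Fos went from an NTR of 0 in both replicates at 15 min to 1 and 0.972 at 30 min. Its deposited 90% intervals were wide, with 0.006 to 0.373 and 0.005 to 0.298 at 15 min, and 0.632 to 0.987 and 0.577 to 0.980 at 30 min. The intervals of the 2 durations did not overlap. The NTR values are the deposited posterior maxima, which for Fos fall outside the interval at 0 and 1. The NTRs of 1 of Fosl1, Fosl2 and Jun likewise lie above their upper interval bounds, which were 0.9989 to 0.9999. The posterior means of Fos were 0.132 and 0.104 at 15 min and 0.876 and 0.841 at 30 min. At 60 min the intervals reached from 0.283 to 0.955 over both replicates, at 16 and 21 reads, and they overlapped those of 30 min.

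Few neighbours in the NTR order were separated by their 90% intervals in both replicates. At 30 min Fos lay above Jun, at 60 min Fosl1 above Fosb, and at 90 min Fosb above Jund. No other neighbours were separated at any duration, so Fosl2 and Jun have no order between them at 60 min.

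**Figure D3:**
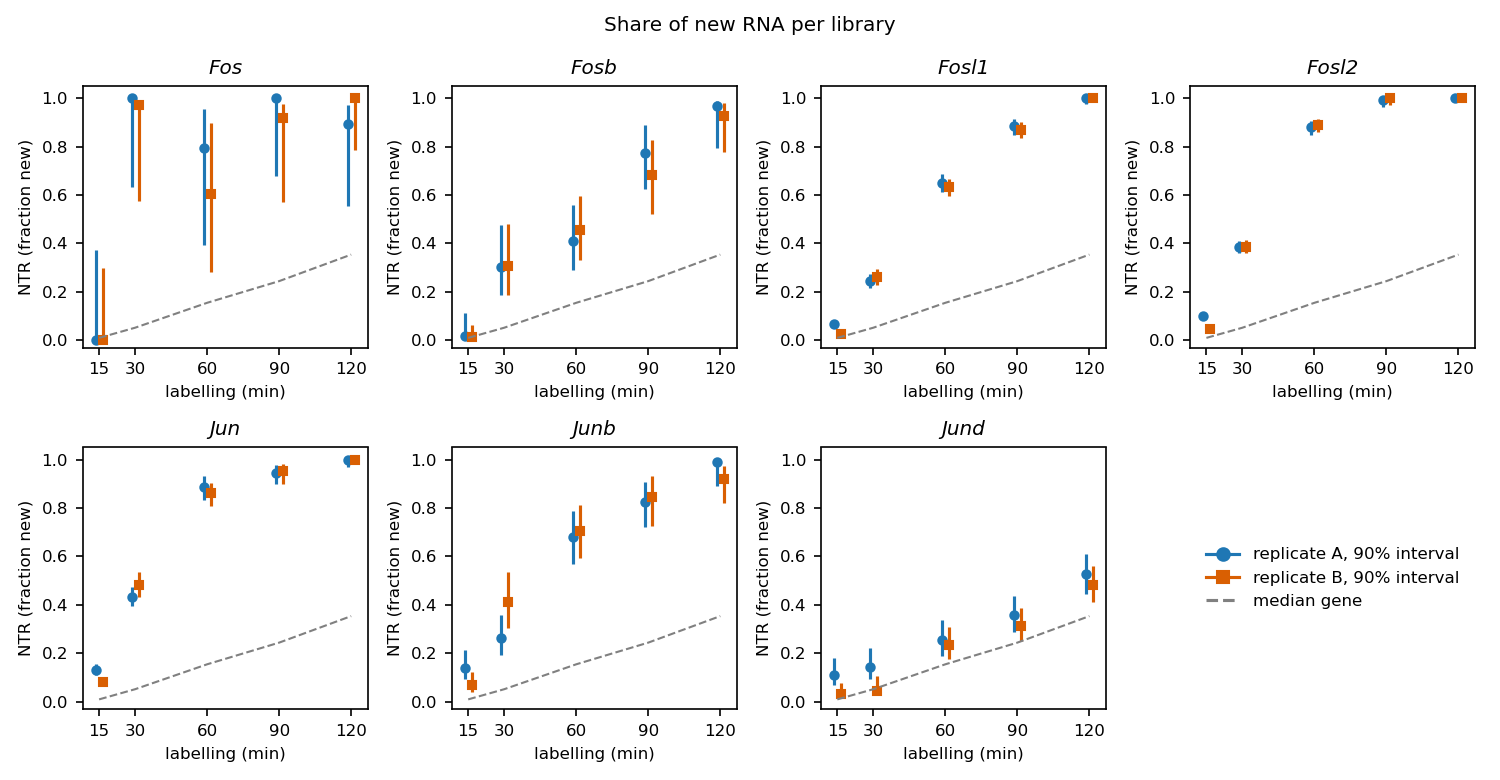
Fraction of new RNA (NTR, y axis, 0 to 1) of each AP-1 subunit gene against labelling time in min. Circles and squares are replicates A and B with their deposited 90% intervals and the dashed line is the median gene; Fosl2 and Jun reach 1 at 120 min, whereas Jund reaches 0.526 and 0.484.

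The apparent half-life, ln 2 × labelling time / −ln(1 − NTR), assumes a constant level and immediate labelling. At 60 min it was 19.3 ± 0.388 min for Fosl2 (mean ± SD, n = 2) and 20.1 ± 1.42 min for Jun. It was 35.1 ± 1.71 min for Junb, 35.5 ± 13.0 min for Fos and 40.7 ± 1.38 min for Fosl1. Fosb had 73.7 ± 7.13 min and Jund 148 ± 9.91 min, against 247 ± 7.16 min for the median gene. The estimate depends on the labelling time: that of the median gene was 519 min from 15 min of labelling and 198 min from 120 min, and that of Fosb 57.1 min from 30 min and 28.1 min from 120 min. Jund gave 153 ± 17.3 min from 90 min and 119 ± 10.1 min from 120 min.

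The loss of old RNA, CPM × (1 − NTR), gives a rate that needs no level at time 0. Relative to the unlabelled level, 10.3% of Fosl2 RNA was old at 60 min and 11.5% of Jun RNA. For Fos it was 20.4%, for Junb 28.2%, for Fosl1 34.8%, for Fosb 59.1% and for Jund 87.5%. The slope of the natural log of old RNA on time gave 3.73 ± 0.298 per hour for Fosl2 (SE, 7 libraries with NTR below 1), a half-life of 11.1 min. Jun lost 2.51 ± 0.118 per hour (8 libraries), a half-life of 16.5 min, and Junb 1.90 ± 0.320 (10 libraries), 21.9 min. Fosl1, at 1.67 ± 0.0982 per hour (8 libraries), and Fosb, at 1.67 ± 0.252 (10 libraries), had half-lives of 24.96 and 24.98 min. Jund lost 0.357 ± 0.0566 per hour (10 libraries), a half-life of 117 min.

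The median of 9056 genes with at least 6 usable libraries lost 0.242 per hour, a half-life of 172 min. The rate was lower than that of Fosl2 in 99.9% of these genes, than that of Jun in 99.0%, than that of Junb in 97.0%, and than those of Fosl1 and Fosb in 95.2% each. It was lower than that of Jund in 62.0%. Fos gave 0.869 ± 0.625 per hour (7 libraries), a half-life of 47.9 min that spans 27.8 to 171 min within 1 SE, and its sign turned when the 15 min libraries were left out (-0.197 per hour). Without the 120 min libraries the half-life was 180 min for Jund, 40.2 min for Fosb and 28.8 min for Junb. For Fosl1, Fosl2 and Jun this setting could change nothing, because their 120 min libraries, at an NTR of 1, were already left out. With the no4sU libraries added at time 0 their rates were 1.46, 3.11 and 2.27 per hour, in that order. Without the 15 min libraries, a setting chosen after seeing the data, they were 1.81, 4.25 and 2.51. Of 35 rates of members under an alternative, 17 stayed within 1 SE of the main rate, 16 moved farther and 2 changed sign.

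**Figure D4:**
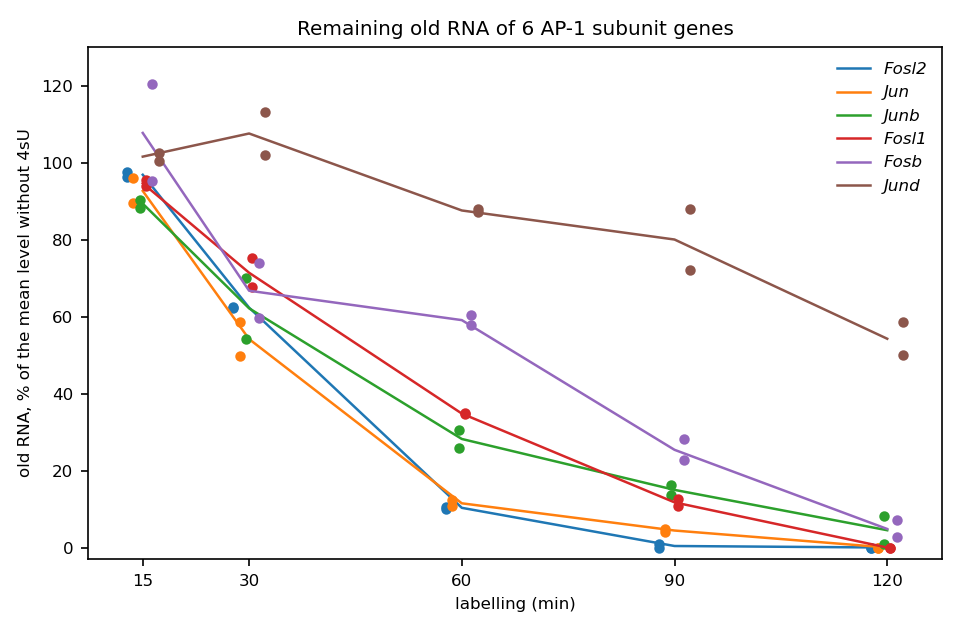
Old RNA, CPM × (1 − NTR), as a percent of the mean unlabelled level (y axis, linear) against labelling time in min, for 6 AP-1 subunit genes (Fos is left out for its low counts). Points are libraries and lines join the means of 2; at 60 min Fosl2 is at 10.3%, Jun at 11.5% and Jund at 87.5%.

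New transcript at 30 min, CPM × NTR per kilobase, ordered the members otherwise than their levels did. Fosl1 had 25.9 ± 0.329 new CPM per kilobase (mean ± SD, n = 2), Jun 22.2 ± 0.580 and Fosl2 18.1 ± 0.117. Junb had 5.37 ± 1.51, Jund 1.74 ± 1.34, Fos 1.25 ± 0.249 and Fosb 0.684 ± 0.109. Jund and Junb overlapped in level, but both Junb libraries had more new RNA than both Jund libraries at 30 min, from 4.31 against at most 2.69. Fos and Fosb were in the reverse order of their levels, with 1.07 and 1.43 new CPM per kilobase for Fos and 0.607 and 0.761 for Fosb.

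Uridine content, which sets how many 4sU a transcript can take up, differed among the members. The longest coding transcript was 25.5% U for Fosl2, 24.7% for Fosb, 24.3% for Fos, 20.4% for Jun, 18.2% for Fosl1, 17.3% for Junb and 17.0% for Jund, against 24.7% for the median gene. The part of U content in these NTRs was not tested.

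By root mean square difference of NTR over the 10 labelled libraries, among 9060 genes outside the family with a mean count of at least 100, the genes most like Fosl1 were Rgmb (0.0202) and Nr4a1 (0.0214), the latter an immediate-early nuclear receptor. Fosl2 was most like Fbxo5 (0.0230) and Amotl2 (0.0284). Jun was most like Klf6 (0.0228), a zinc finger transcription factor, and Sgk1 (0.0274), a serum- and glucocorticoid-induced kinase. Junb was most like Pdp2 (0.0430) and Hbegf (0.0474), a growth factor of the EGF family, and Amigo2 (0.0330) was among the genes most like Jund. Fos and Fosb, with mean counts of 22.9 and 99.3, were below the count minimum for this comparison. These values describe likeness over libraries that share their labelling times.

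Among 74 other genes of the AP-1 pathway, 64 were tested and 34 changed with labelling time: 5 rose and 29 fell, with a median slope of -0.06 per hour. That is 53.1% called, beside 37.8% of all genes. The kinase genes upstream of AP-1 counted 1 higher and 7 lower of 16, the regulators of the Fos and Jun promoters 1 higher and 6 lower of 11, and the basic leucine zipper relatives 0 higher and 5 lower of 9. AU-rich element binders counted 1 higher and 3 lower of 9, genes for turnover of the proteins 0 higher and 2 lower of 5, and known AP-1 targets 2 higher and 6 lower of 14. With the labelled part scaled up, 8 rose and 8 fell of the 64, and with library size as the only normalization 2 rose and 36 fell.

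Among upstream genes, Map3k1, a kinase that leads to Jun N-terminal kinase, had the steepest fall, with a slope of -0.34 ± 0.0914 log2 per hour (SE; edgeR, adjusted p = 0.00296). Creb1, which binds cyclic AMP elements, fell with a slope of -0.24 ± 0.0425 (edgeR, adjusted p = 1.39e-05), and Mrtfb, a cofactor of serum response factor, with -0.24 ± 0.0335 (adjusted p = 2.44e-07). Itch, a ubiquitin ligase for Jun proteins, fell with a slope of -0.21 ± 0.0297 (edgeR, adjusted p = 3.01e-07). The 5 that rose were Crebbp, a coactivator, at 0.24 ± 0.0370 (edgeR, adjusted p = 1.81e-06), the metalloprotease inhibitor gene Timp1 at 0.13, Ezr at 0.09, the kinase gene Map2k2 at 0.08 and the RNA binding protein gene Pcbp2 at 0.06.

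Against no4sU at 120 min, 1 pathway gene was higher and 14 were lower of 64 (23.4% called, against 14.2% of all genes). Crebbp was the gene that was higher, by 0.49 (log2; edgeR, adjusted p = 0.00120). Among the largest falls were those of Creb1 (-0.40), Zfp36 (-0.39), Plau (-0.35) and Itch (-0.33), where Zfp36 promotes decay of AU-rich mRNAs and Plau encodes urokinase. With only these 2 groups in the fit, 1 was called higher and 0 lower, and leaving out 1 library at a time gave 3 to 23 lower, the fewest without 120 min replicate A and the most without no4sU replicate A. Between 15 and 120 min, 2 rose, Crebbp by 0.45 and Timp1 by 0.22, and 22 fell (37.5% called, against 19.3%). Leaving out any 1 of the 4 libraries gave 1 higher, with 9 lower without 15 min replicate A, 10 without 15 min replicate B, 10 without 120 min replicate A and 11 without 120 min replicate B. Among the largest of those falls were Map3k1 (-0.52), Mrtfb (-0.48), Atf7 (-0.39) and Plau (-0.38). With the labelled part scaled up, the counts were 2 higher and 1 lower against no4sU and 1 higher and 2 lower against 15 min.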

How the data were processed

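The members and gene lists were chosen with earlier results of these data known. The authors deposited estimated counts of reads per gene and library, not scaled between libraries (20.4% of values are not whole). The deposited table also gives, per the file headers, the posterior maximum, mean and 0.05 and 0.95 quantiles of the NTR as a fraction, with 2 parameters of its distribution (deposited as a score and not used) and a gene length. The submitters' processing notes name cutadapt, Bowtie2 2.3.0 and STAR 2.7.10b without a role; no source used here names the counting tool, NTR tool, strand setting or build. CPM values are counts relative to library sizes scaled by edgeR's TMM factors. Counts were rounded and tested with edgeR 4.0.16 in R 4.3.3 (TMM factors of 0.970 to 1.02, filterByExpr, quasi-likelihood F-test, Benjamini-Hochberg over all genes tested, threshold 0.05): 1 fit of all 12 libraries in 6 groups for the contrasts, and 1 fit of the 10 labelled libraries with labelling time as the term. All 7 members passed the filter. The fits were tested on simulated data. Alternatives were DESeq2 1.42.0, its size factors, library size only, no filter, the replicate letter as a block, the labelled part scaled up, only the 2 groups compared, no4sU at time 0 and each library left out. Count totals of 9917026 to 13739380 set the precision: Fos, at a mean of 22.9 counts, is the least precise. The 2 genes most like each member with a mean count of at least 100 are named, and of the pathway list up to 5 called genes each way by size of change; some genes that this rule names are not reported here. An exact permutation test of 2 libraries against 2 cannot go below p = 0.333, so none is given. The old RNA rate leaves out libraries with an NTR of 1. The labelled part was scaled up only in libraries of 60 min or more.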

Additional observations from a re-analysis of the deposited data

How the results depend on the processing

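Of 273 log2 differences and slopes of members under an alternative, 222 kept their direction and their side of the threshold, 31 changed sign, and of those that kept their sign 11 became called and 9 were no longer called. Some that changed sign also lost a call, those of Fosl2 and Jun under the scaling among them. With the labelled part scaled up, the signs turned at 120 min against no4sU for Fosb (0.11), Fosl1 (0.17), Fosl2 (0.069) and Jun (0.11), at 120 against 15 min for Fosl1 (0.18), Fosl2 (0.0078), Jun (0.052) and Jund (0.068), and in the trend for Fos (0.17), Fosb (0.035), Fosl1 (0.13), Fosl2 (0.019), Jun (0.033) and Jund (0.028). With library size only, Junb turned to -0.014 against no4sU, -0.0086 against 15 min and -0.0143 in the trend. With no4sU at time 0, the trend turned to -0.0033 for Junb and 0.061 for Jund. With 1 library left out, Junb ranged from -0.018 to 0.11 against no4sU and from -0.018 to 0.053 in the trend. Jund then ranged from -0.13 to 0.45 against no4sU, from -0.074 to 0.076 against 15 min and from -0.042 to 0.029 in the trend, and the trend of Fos from -0.11 to 0.13. The old RNA rate of Fos, in 2 settings chosen after seeing the data, was -0.197 per hour from 30 min and -0.704 between 30 and 90 min. The causes were not tested.

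Members called against no4sU changed in number at every duration when some single libraries were left out. The number of all genes called moved with the setting too, as given below for 120 min. For the shorter durations no share of all genes stands beside them, so member counts under alternatives are not read as a result about the members. With library size only the count was 1 at 90 min and 3 at 120 min. At 120 min it was 2 without the filter and 0 with only the 2 groups. Against 15 min it was 1, Junb, with the labelled part scaled up, and 0 to 2 with 1 library left out. For any difference among durations it was 2 with library size only, 2 without the filter, 0 with the labelled part scaled up, and 0 to 1 with 1 library left out. The trend called 2 to 3 members with 1 library left out.

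Of all genes, 1643 were called at 120 min against no4sU, 1060 by DESeq2, 187 with the labelled part scaled up, 171 with only the 2 groups and 452 to 3533 with 1 library left out. Against 15 min the counts were 2228, 1439, 252, 3818 and 657 to 1037. The trend called 4362, and 1563 with the labelled part scaled up. Library size only moved the split from 628 higher and 1015 lower to 203 and 1684 against no4sU, from 917 and 1311 to 426 and 1867 against 15 min, and from 2111 and 2251 to 1172 and 3031 in the trend.

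The letters A and B name replicates in each group. Over 15 pairs of groups, the correlation of A minus B differences across genes ran from -0.0726 to 0.0896, so the letters did not pair the libraries. With the replicate block, members called were 2 at 120 min against no4sU and 2 for any difference among durations, Jund against 15 min turned to 0.0036, and all genes called were 1737, 2315 and 4447 at 120 min against no4sU, against 15 min and in the trend.

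Depth limits Fos (15 to 32 reads) and Fosb, whose NTR intervals were 0.0590 to 0.305 wide.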
